A study of Drosophila melanogaster with 6 samples.

Results

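The windows described here are the pericentric windows of chromosome 3R that lie in under-replicated domains of the salivary gland genome. All windows that the authors list under pericentric heterochromatin of 3R were taken, each start position once, which gave 392 windows of 10 kb out of 2189 different listed windows. The remaining windows are 989 pericentric windows of the other chromosomes and 808 windows of the chromosome arms. The choice uses chromosome and position and none of the genotype comparisons below, although the authors called the domains themselves in HWT. Windows outside these domains were not analysed here, so the values describe under-replicated DNA alone.

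The DNA came from female third-instar larvae that had begun to wander. Salivary glands of 3 genotypes were sequenced as 2 biological replicates each, with 25 glands per replicate. All larvae, controls included, carried ΔHisC, UAS-2xEYFP over ΔHisC, twi-GAL4, a pair of chromosomes that lack the endogenous cluster of replication-dependent histone genes, so that transgenes supplied these histones. The transgenes of the Histone Wild Type control (HWT) were unmutated. Those of H3K9R changed lysine 9 of H3 to arginine, which cannot take up the marks of lysine, and those of H4K16R made the same change at lysine 16 of H4. The variant histone genes outside that cluster (H3.3 and His4r) were unmutated, so unmodifiable histones did not replace every H3 or H4 molecule. GFP-positive larvae were separated from their siblings early in larval life, and the glands hold the polytene secretory cells together with the few diploid imaginal cells and any attached fat body, which the DNA does not tell apart.

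Salivary gland cells become polyploid by endoreplication, in which rounds of S phase follow each other without mitosis. A round can end before late-replicating DNA has been copied. Heterochromatin near the centromeres is most affected and falls behind the chromosome arms in copies per cell, which is called under-replication. Lysine 9 of H3 carries the methyl marks that bind HP1 and define pericentric heterochromatin, and lysine 16 of H4 carries an acetyl mark of open chromatin. The comparisons therefore ask whether DNA of 3R heterochromatin was more or less abundant when one of these residues could not be modified.

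The normalized read count of a window is given in RPM, reads in the window scaled to the sequencing depth of the library, and serves as a relative measure of DNA copy number. The authors deposited averages of the replicates, from which the whole reads of each library were derived. The libraries held between 18681787 and 26685461 reads, and the 2 of a genotype are called deeper and shallower by these totals. A 3R window held a median of 160.5 and 169 reads in the HWT libraries, 460.5 and 382.5 in H3K9R and 205.5 and 178.5 in H4K16R. At windows with at least 5 RPM, the replicates differed by a median absolute log2 value of 0.10 in HWT, 0.08 in H3K9R and 0.09 in H4K16R. Reads carry no molecular identifiers, so a number of reads is not a number of independent molecules.

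The 3R windows are of very unequal sequence, and 4 short stretches show what they hold. The assembled 3R scaffold opens in dodeca, a GC-rich satellite known from the centromere region of chromosome 3, and the capitals mark its core heptamer GTACGGG. The next comes from the window with the highest H3K9R/HWT ratio, at its middle, where nothing is in capitals. The last 2 are coding exons (capitals) with 30 bases of intron on either side, from Pzl and Myo81F, taken from the window of each gene with the highest ratio that holds a whole exon of this size. All are from the RefSeq dm6 assembly.
dodeca, chr3R:1-120, plus strand: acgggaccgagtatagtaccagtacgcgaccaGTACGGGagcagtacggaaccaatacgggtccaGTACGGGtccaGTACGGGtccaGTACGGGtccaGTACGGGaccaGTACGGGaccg
Pzl intron, chr3R:2684900-2685099, plus strand: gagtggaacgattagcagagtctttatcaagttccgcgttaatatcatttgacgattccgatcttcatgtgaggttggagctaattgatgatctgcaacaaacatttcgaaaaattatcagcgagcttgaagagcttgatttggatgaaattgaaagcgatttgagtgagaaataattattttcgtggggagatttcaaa
Pzl exon, chr3R:2743081-2743197, minus strand: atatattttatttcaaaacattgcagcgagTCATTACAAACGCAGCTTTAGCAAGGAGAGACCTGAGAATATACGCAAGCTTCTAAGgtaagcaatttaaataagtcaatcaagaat
Myo81F exon, chr3R:947396-947600, plus strand: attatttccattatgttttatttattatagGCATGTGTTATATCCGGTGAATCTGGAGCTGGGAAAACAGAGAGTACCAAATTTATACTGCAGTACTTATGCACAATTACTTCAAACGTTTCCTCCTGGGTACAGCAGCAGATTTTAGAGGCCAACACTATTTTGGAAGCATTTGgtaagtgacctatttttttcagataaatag

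The 392 windows fell into 4 stretches of adjoining windows within the first 4.58 Mb of 3R, which is tiled by 458 windows in all. The longest ran without a gap from 1 to 3570000 and held 357 windows. The others were 3670001 to 3700000 with 3 windows, 3880001 to 4180000 with 30 windows and 4560001 to 4580000 with 2 windows. HWT levels were lowest on the centromere side. By 1 Mb segments, the median HWT value was 4.41 RPM in the first, 3.20 RPM in the second, 6.46 RPM in the third, 17.2 RPM in the fourth and 37.3 RPM beyond 4 Mb. Over all 392 windows the median was 6.40 RPM in HWT, against 19.6 RPM at the other pericentric windows and 40.8 RPM at the listed arm windows. The 3R windows were thus the more depleted share of the pericentric list.

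**Figure D1:**
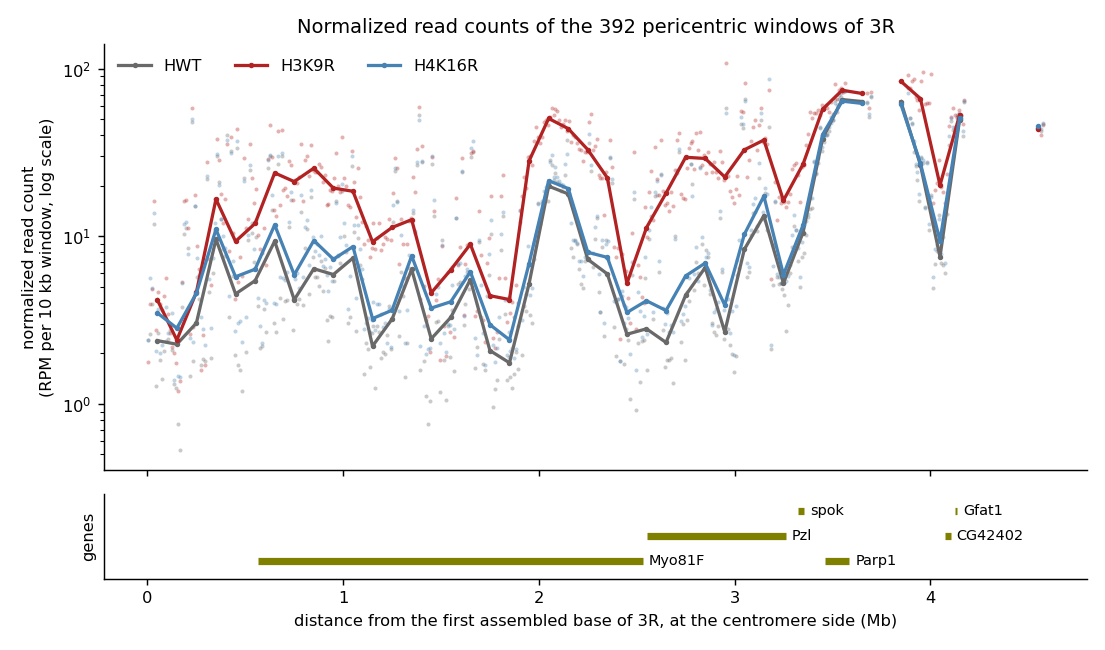
Normalized read count (RPM, log scale) of each 3R window against its distance from the first assembled base of 3R (Mb); points are averages of 2 libraries, lines join medians over 100 kb, and bars below mark 6 protein-coding genes. The H3K9R line lies well above the other lines over most of Myo81F, Pzl and spok, and comes close to them at the centromere side and over Parp1 and Gfat1.

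In H3K9R, DNA of the 3R heterochromatin was more abundant than in HWT along most of its length. The median 3R window held 6.22 and 6.65 RPM in the HWT libraries and 20.6 and 20.5 RPM in the H3K9R libraries, so the genotypes did not overlap. All 3R windows together took 0.516% and 0.511% of the reads in HWT and 1.01% of the reads in each H3K9R library. Per window, H3K9R exceeded HWT by a median log2 ratio of 1.28 (2.43-fold), with quartiles of 0.65 and 1.97 and a range from -0.43 to 3.51. When single libraries were set against each other, the 4 possible pairs gave medians from 1.24 to 1.30 (SD 0.03). A two-sided exact permutation test over library medians cannot go below p = 0.333 with 2 libraries against 2, and it gave this value, also after adjustment over 5 such tests.

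Counted by window, 322 of the 392 rose in H3K9R and 0 fell, by limma on log2(RPM + 1) with Benjamini-Hochberg adjustment over 2177 windows and a cutoff of 0.001. The same test called 55.3% of all listed windows higher and 15.6% lower, and it called 87.2% of the other pericentric windows higher. Without adjustment, at p under 0.05, the numbers on 3R were 365 higher and 1 lower, against 59.2% and 23.7% of all listed windows and 90% and 1.43% of the other pericentric ones. The averaged RPM was at least 2-fold higher in H3K9R at 238 windows (background 37.6% of all listed windows), at least 4-fold at 95 (14.9%) and at least 8-fold at 18 (3.63%). These were 60.7%, 24.2% and 4.59% of the 3R windows, next to 58.6%, 23.5% and 6.25% of the other pericentric windows. Both H3K9R libraries lay above both HWT libraries at 377 windows (background 61.5%), next to 893 of the 989 other pericentric windows. They lay below both at 5 windows of 3R, 35 of the other pericentric windows and 572 of the 808 arm windows. At 8 windows the ratio of averages was under 1, from the first window to 4.56 Mb. In the first 1 Mb the ratio was above 1 at 95 of 100 windows, and beyond 4 Mb at 18 of 20. In between it was above 1 at 99 of 100, 100 of 100 and 72 of 72 windows by 1 Mb segment.

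The increase was not even along the chromosome. The median log2 ratio was 1.09 in the first 1 Mb, 1.06 in the second, 1.57 in the third, 1.35 in the fourth and 0.41 beyond. The pairings of libraries kept each segment within a narrow range, for example 1.57 to 1.64 in the third and 0.99 to 1.10 in the first. In the same order, windows called higher numbered 78 of 100, 74 of 100, 94 of 100, 64 of 72 and 12 of 20. Blocks at 2-fold or more, single windows included, numbered 49. The longest were 740001 to 960000 with 22 adjoining windows, then 1060001 to 1250000 and 3210001 to 3400000 with 19 windows each. Their median log2 ratios were 2.12, 2.15 and 1.71.

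Medians over 100 kb showed peaks and troughs next to each other. The highest was from 2900001, inside Pzl, where the library medians were 2.71 and 2.56 RPM in HWT, 3.82 and 4.15 RPM in H4K16R and 23.7 and 22.3 RPM in H3K9R, a median log2 ratio of 3.05. In the 100 kb from 1900001, toward the distal end of Myo81F, it was 2.39, and HWT libraries of 5.10 and 5.31 RPM stood against 27.3 and 28.4 RPM in H3K9R. Between these peaks the lowest median was 0.97, in the 100 kb from 2400001. Nearer the centromere it was 0.57 in the 100 kb from 1600001, with 5.91 and 5.10 RPM in HWT and 9.11 and 8.81 RPM in H3K9R, and 4 of its 10 windows were called. HWT was under 6 RPM in all 4 places, so a similar starting level went with very different ratios.

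**Figure D2:**
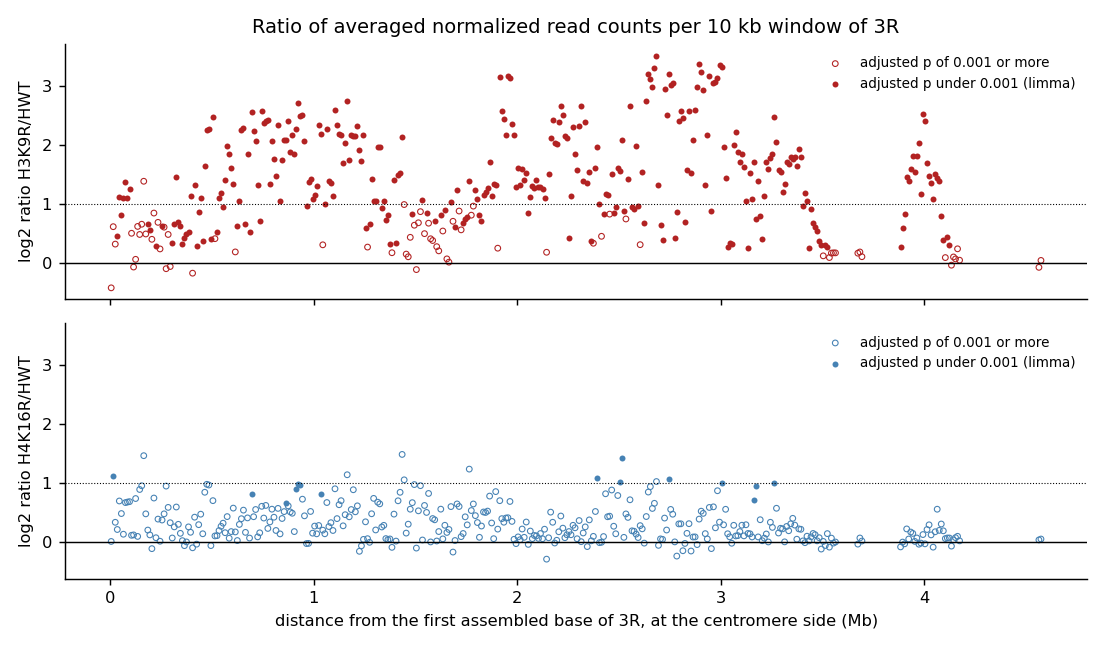
Log2 ratio of the averaged RPM of H3K9R (top) and H4K16R (bottom) to HWT for each 3R window against distance from the first assembled base (Mb); filled points have an adjusted p under 0.001 by limma and the dotted line marks 2-fold. H3K9R has 322 filled points and reaches 3.51, and H4K16R has 15 and reaches 1.48.

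Ratios were highest in Pzl (Piezo-like, FBgn0267430), which encodes a relative of the Piezo mechanosensitive channels and spans 2554162 to 3263582 on the minus strand. Its 72 listed windows had median values of 5.81 and 5.94 RPM in the HWT libraries, 24.6 and 24.4 RPM in H3K9R and 6.65 and 6.39 RPM in H4K16R. H3K9R stood far above both others. The median log2 H3K9R/HWT ratio was 1.84, 71 of 72 windows rose by limma, and both H3K9R libraries exceeded both HWT libraries at all 72. Of the 18 windows of 3R at 8-fold or more, 15 overlapped Pzl and 3 overlapped Myo81F. The 9 Pzl windows with coding sequence had a median of 1.99, and the 63 without had 1.83.

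The 5 windows with the highest ratios all lie in Pzl introns. At 2680001 to 2690000, from which the intron stretch above was taken, the HWT libraries held 1.55 and 1.10 RPM, the H3K9R libraries 14.8 and 15.4 RPM and the H4K16R libraries 2.89 and 2.51 RPM. The ratio was 11.4-fold, and limma gave a log2 difference of 2.80 (SE 0.15, adjusted p = 4.83e-16) on the log2(RPM + 1) scale, which understates low windows. At 2890001 to 2900000 the ratio was 10.3-fold, from 2.98 and 2.40 RPM in HWT to 28.2 and 27.5 RPM in H3K9R. The ratios were 10.2-fold at 2990001, 9.90-fold at 3000001 and 9.80-fold at 2670001. None of the 5 exceeded 3 RPM in HWT, and their H3K9R values reached 14.3 to 28.2 RPM in single libraries.

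Myo81F (FBgn0267431), a gene for an unconventional myosin, spans 1966 kb from 567076 to 2532932 and overlaps 198 of the 392 windows. Its library medians were 4.71 and 4.74 RPM in HWT, 6.20 and 6.16 RPM in H4K16R and 16.8 and 16.9 RPM in H3K9R. The median log2 ratio of H3K9R to HWT was 1.34 with quartiles of 0.83 and 2.08, and 166 windows rose. Within this single gene the ratio ranged from -0.12 to 3.16. The 21 windows with coding sequence, which include the exon printed above, had a median of 1.55, and the 177 without had 1.33.

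The shorter genes lie farther from the centromere. spok (spookier, FBgn0086917), a cytochrome P450 of ecdysone synthesis, overlaps 4 windows with medians of 7.31 and 7.22 RPM in HWT, 9.16 and 8.66 RPM in H4K16R and 24.9 and 24.1 RPM in H3K9R, and all 4 rose in H3K9R at a median log2 ratio of 1.73. CG42402 (FBgn0259821) overlaps 4 windows, of which 3 rose, with 23.9 and 24.4 RPM in HWT against 34.9 and 33.8 RPM in H3K9R, a median of 0.59. HWT levels at CG42402 were thus well above those at spok, while the H3K9R levels were closer together.

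At Parp1 and Gfat1, HWT levels were high and close to those in H3K9R. Parp1 (FBgn0010247), the poly(ADP-ribose) polymerase, spans 3461351 to 3587054, and its 11 listed windows had medians of 53.8 and 55.8 RPM in HWT, 62.3 and 58.6 RPM in H4K16R and 66.1 and 68.4 RPM in H3K9R. The median log2 H3K9R/HWT ratio was 0.27, and 6 of 11 windows rose. Gfat1 (FBgn0287209), the entry enzyme of the hexosamine pathway, overlaps 2 windows with medians of 48.0 and 47.9 RPM in HWT and 53.7 and 50.9 RPM in H3K9R, a median of 0.13. One of its windows rose, and at the other the averages were 53.0 RPM in HWT and 51.5 RPM in H3K9R. The single windows of CG40198, CG12581 and CG32945 had log2 ratios of 0.23, 0.04 and 0.04, and 0 of these 3 passed the limma test.

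**Figure D3:**
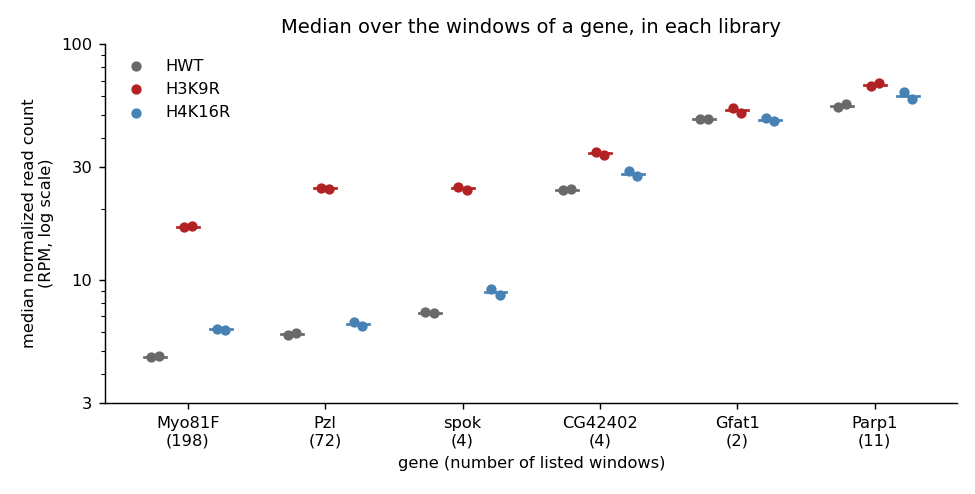
Median normalized read count (RPM, log scale) over the listed windows of 6 genes in each of the 2 libraries per genotype; bars are the mean of 2 libraries and the number of windows is in brackets. H3K9R points lie well above HWT at Myo81F, Pzl and spok, and approach HWT at Gfat1 and Parp1, where HWT is near 50 RPM.

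Windows with and without coding sequence had similar ratios inside genes. The 41 windows with coding sequence had a median log2 H3K9R/HWT ratio of 1.32, and the 253 inside a protein-coding gene but without coding sequence had 1.39. The 98 windows outside such genes had a lower median of 0.84. Windows that hold an annotated transposable element (113) had 0.99 and the others (279) 1.36. A difference of similar size went with sequence uniqueness, the share of 100-base sequences of a window that occur once in the assembly. The median was 1.08 at 75 windows with up to 20% unique sequence, 0.95 at 20 to 40%, 1.04 at 40 to 60%, 1.64 at 60 to 80% and 1.71 at 95 windows above 80%. Reads with low mapping quality had been removed before counting, so windows rich in repeats rest on less sequence. They did not hold fewer reads: median HWT levels were 9.48 RPM up to 20% unique sequence and 3.45 RPM above 80%. HWT medians were also higher with a transposable element (8.99 RPM) than without (5.58 RPM). Outside genes the HWT median was 10.1 RPM, against 5.70 RPM with coding sequence and 5.84 RPM in genes without it. The part of mapping or of HWT level in these ratios was not tested.

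The lowest ratios lay in satellite and other repeated DNA and at the distal end. At the first window, 1 to 10000, which holds 561 matches to the dodeca core on either strand, the libraries gave 2.13 and 2.68 RPM in HWT, 2.29 and 2.55 RPM in H4K16R and 1.70 and 1.87 RPM in H3K9R. Its ratio of 0.743 was the lowest on 3R, and the log2 difference of -0.28 (SE 0.17, limma adjusted p = 0.122) did not pass. At 400001 to 410000, with 10.9% unique sequence, HWT held 40.6 and 39.4 RPM and H3K9R 35.4 and 35.3 RPM (adjusted p = 0.0120). This was the only window of 3R lower in H3K9R at an unadjusted limma p under 0.05, and with RPM scaled to arm windows 0 were lower. The windows on either side of 400001 to 410000 held averages of 7.57 and 3.28 RPM in HWT. The remaining lowest ratios were 0.921 at 1500001, 0.931 at 270001 and 0.946 at 4560001, and none of these passed the test either.

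**Figure D4:**
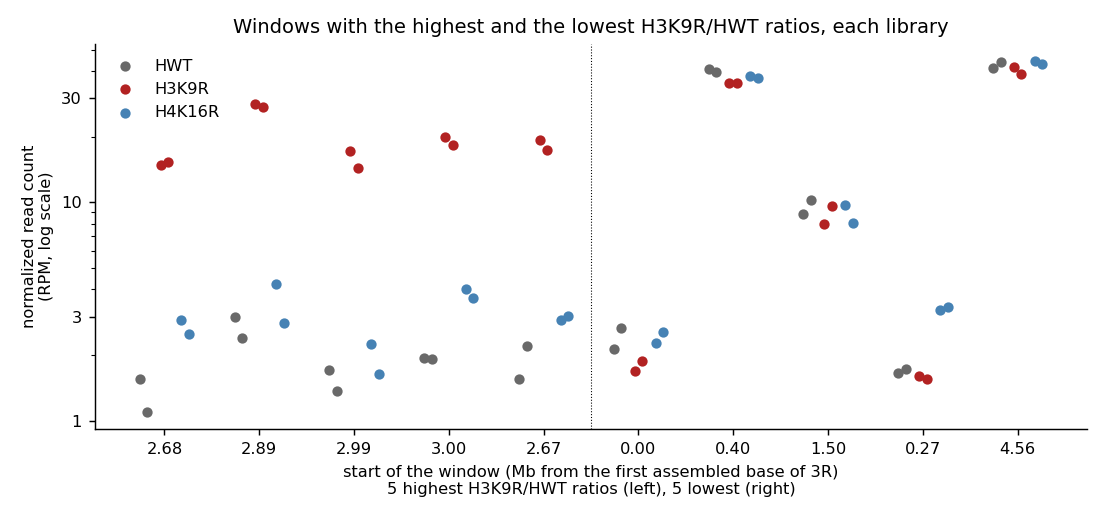
Normalized read count (RPM, log scale) of each of 6 libraries at the 5 windows with the highest (left) and the 5 with the lowest (right) H3K9R/HWT ratio among windows with at least 1 RPM in HWT, named by their start in Mb. On the left H3K9R holds 14.3 to 28.2 RPM and HWT at most 2.98 RPM; on the right HWT and H3K9R lie close together.

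The dodeca heptamer GTACGGG, searched on both strands, was found in 107 of the 392 windows, 27.3%, and in 23.8% of all 2189 listed windows. Dense arrays were confined to 3R among the listed windows: all 32 windows with 10 or more matches were on 3R, and 28 of them lay in the first 330 kb. These 32 windows had median averages of 2.08 RPM in HWT, 3.30 RPM in H4K16R and 4.52 RPM in H3K9R. Their median log2 H3K9R/HWT ratio was 0.62, ranging from -0.43 to 2.50, and 15 of 32 rose, against 244 of 285 windows without the heptamer at a median of 1.34. Low counts limit the dodeca windows, since 25 of the 32 held under 5 RPM in HWT, and their median unique share was 29.9%.

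In H4K16R, 3R windows were slightly more abundant than in HWT. The median window held 7.70 and 7.71 RPM in the H4K16R libraries against 6.22 and 6.65 RPM in HWT, and 3R took 0.564% and 0.563% of the reads against 0.516% and 0.511%. The genotypes again did not overlap, but the gap was small. The median log2 ratio was 0.22, a 1.17-fold value, with quartiles of 0.07 and 0.50, and pairings of libraries gave 0.22 to 0.23. The exact permutation test of library medians (two-sided) again gave p = 0.333, its smallest possible value. The ratio of averages was above 1 at 347 of 392 windows, against 53.2% of the other pericentric windows. Both H4K16R libraries lay above both HWT libraries at 249 windows (background 37% of all listed windows), next to 306 of the 989 other pericentric windows. They lay below both at 12 windows of 3R, 260 of the other pericentric windows and 158 of the 808 arm windows.

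Few single windows passed the test in H4K16R. By limma 15 of 392 rose and 0 fell (background 3.31% higher and 1.06% lower, and 4.81% higher at other pericentric windows), so the share called on 3R was close to that of the whole list. Without adjustment, at p under 0.05, 178 windows were higher (background 21.8% of all listed windows, 19.7% of the other pericentric ones) and 2 lower (9.83% and 16%). The count depended on the fit: a cutoff of 0.05 gave 102 windows (background 12.9%), a fit of HWT and H4K16R alone gave 7, and leaving out any 1 of the 6 libraries gave 3 to 7. At least 2-fold higher averages were seen at 11 windows (background 1.33%), against 20 and 19 when the deeper or the shallower HWT library was left out, and 0 with 1 RPM added to both genotypes.

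The H4K16R/HWT ratio was highest where HWT was lowest. By 1 Mb segments the median log2 ratio was 0.36, 0.38, 0.19, 0.10 and 0.07 from the centromere outward. The 15 windows that rose comprised 9 in Myo81F, 5 in Pzl and the dodeca window at 10001. The highest ratio among windows with at least 1 RPM in HWT was 2.68-fold, at 2510001 to 2520000 in Myo81F, where HWT held 1.43 and 1.26 RPM, H4K16R 3.71 and 3.50 RPM and H3K9R 4.79 and 6.58 RPM (H4K16R against HWT by limma 0.97, SE 0.16, adjusted p = 0.000110). Next were 1160001 at 2.20-fold, which did not pass (adjusted p = 0.00167), then 10001 at 2.17-fold, 2390001 at 2.11-fold and 2740001 at 2.09-fold. All 5 held under 3 RPM in each HWT library, but ranking by a ratio to HWT itself favours windows with low HWT values.

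Windows lower in H4K16R were few. The lowest ratio was 0.817 at 2140001 to 2150000 in Myo81F, a window of which 68.7% is annotated as the retrotransposon blood, with 37.7 RPM in both HWT libraries, 30.4 and 31.1 RPM in H4K16R and 45.1 and 40.0 RPM in H3K9R (limma adjusted p = 0.00341 for H4K16R). The next lowest were 0.847 at 2780001 in Pzl and 0.888 at 1680001 in Myo81F, with adjusted p of 0.0461 and 0.703 by limma.

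The mutants were also compared with each other. The median log2 ratio of H3K9R to H4K16R on 3R was 0.93, a 1.91-fold value, with pairings from 0.94 to 0.98. By limma 269 of 392 windows were higher in H3K9R and 1 was lower (background 51.4% and 16.2% of all listed windows, 84.5% and 0.307% of the other pericentric ones). Averages were at least 2-fold higher in H3K9R at 183 windows, 46.7% of those on 3R (background 34.6%, and 57.6% of the other pericentric windows). The window that was lower was 270001 to 280000, a dodeca window with 340 heptamers. There H3K9R held 1.61 and 1.55 RPM and H4K16R 3.22 and 3.33 RPM, next to 1.67 and 1.73 RPM in HWT. With RPM scaled to arm windows, 0 windows of 3R were called lower in H3K9R than in H4K16R. The 100 kb from 100001 had the lowest median log2 ratio of those with 10 windows, -0.04, but its sign was not settled: pairings of libraries ran from -0.06 to 0.26, and summed over its windows H3K9R held more, 52.4 RPM against 45.0.

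The 3R windows were then set against the other pericentric windows, for each mutant against the same HWT libraries. The median log2 H3K9R/HWT ratio was 1.28 on 3R and 1.19 at the other pericentric windows, a difference of 0.09. It changed sign when windows of like depth were compared. Among windows with 2.71 to 16.5 RPM in HWT, the interquartile range of 3R, it was 1.54 on 3R (196 windows) and 2.05 elsewhere (353 windows), a difference of -0.51. In 6 classes set by the deeper HWT library, with ratios taken to the shallower one, 3R was lower in each. It was 1.51 against 2.05 at 0 to 3 RPM, 1.96 against 2.42 at 3 to 6 RPM and 1.42 against 2.04 at 6 to 12 RPM. Above that it was 1.06 against 1.47 at 12 to 25 RPM, 0.43 against 0.82 at 25 to 50 RPM and 0.17 against 0.35 at 50 to 100 RPM. At windows with at least 80% unique sequence the order was the opposite, with 1.71 on 3R (95 windows) and 1.48 elsewhere (224 windows). These unique windows were not matched by HWT level, and those of 3R had a median of 3.45 RPM in HWT. At like HWT level the ratio was thus lower on 3R, while both unmatched medians above were higher on 3R.

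For H4K16R the median log2 ratio was 0.22 on 3R and 0.01 at the other pericentric windows, a difference of 0.21, or 0.23 and 0.22 in the 2 libraries. By chromosome it was 0.21 at the 141 X windows with a ratio, so this level was not particular to 3R, and 0.16 at the 8 windows of chromosome 4, -0.02 on 2L, 0.03 on 2R and -0.02 on 3L. Between windows of like HWT level (2.71 to 16.5 RPM) the medians were 0.26 on 3R and 0.12 elsewhere. At windows with at least 80% unique sequence, not matched by HWT level, they were 0.33 and -0.04. In classes of HWT level, 3R and the others were close at 0 to 3 RPM, with 0.58 and 0.54, and at 3 to 6 RPM, with 0.40 and 0.33. They parted above that, with 0.19 and 0.07 at 6 to 12 RPM, 0.13 and 0.01 at 12 to 25 RPM and 0.08 and -0.04 at 25 to 50 RPM. These classes were again set by the deeper HWT library, with ratios and differences taken to the shallower one. On 3R the median excess of H4K16R over that shallower HWT library was 0.92 RPM in the lowest class. It was between 1.21 and 2.28 RPM in the next 4. It was -0.34 RPM at 50 to 100 RPM, so a difference of about 1 or 2 RPM per window was seen below 50 RPM. At the other pericentric windows it was 0.79 RPM at 0 to 3 RPM and 1.16 RPM at 3 to 6 RPM. There it fell to -1.03 RPM at 25 to 50 RPM and -1.78 RPM at 50 to 100 RPM. The exact permutation test (two-sided) over libraries gave its smallest value, p = 0.333, for both differences between 3R and the rest.

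**Figure D5:**
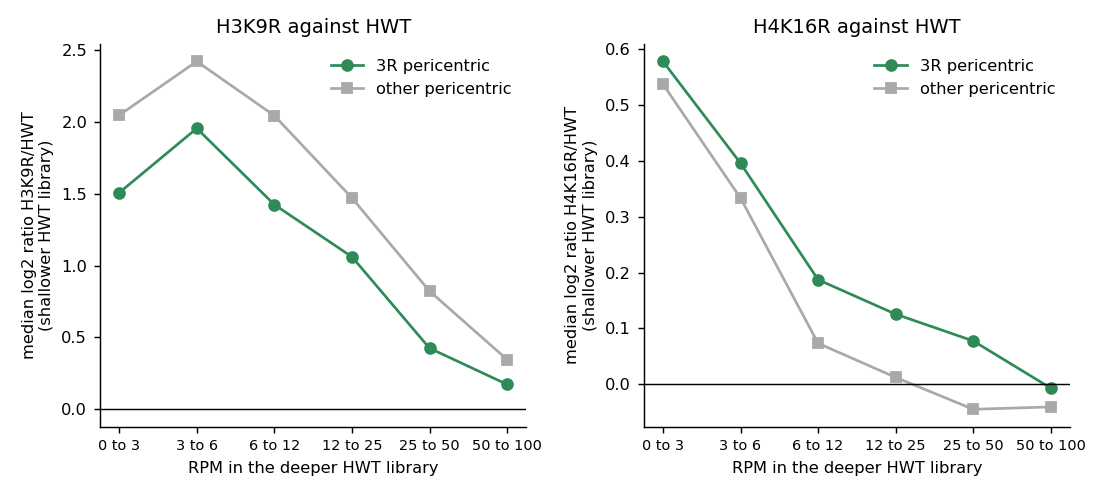
Median log2 ratio of H3K9R (left) and H4K16R (right) to the shallower HWT library in 6 classes of RPM in the deeper HWT library, for 3R and for the other pericentric windows. The 3R line is below the others in all 6 classes for H3K9R and above them for H4K16R, and all lines fall between the 3 to 6 RPM class and the 25 to 50 RPM class.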

How the data were processed

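Sonicated DNA (20 ng per library) had been sequenced with paired 100 bp reads. Per the methods and the submitters' processing notes, the authors trimmed reads with Trimmomatic 0.36, aligned them to dm6 with Bowtie2 2.3.2, kept reads with MAPQ above 10 (SAMtools 1.6), counted them in 10 kb windows with BEDTools, and deposited RPM averaged over 2 replicates for windows in under-replicated domains (called in HWT by CNVnator with 1000-base bins and a minimum size of 10 kb). The deposited lists hold 2195 entries, of which 6 repeat another and were used once.

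Each average is a sum of whole reads divided by 2 library totals, and 1 pair of totals gave whole reads (tolerance 1e-06) in 100% of windows. Depth therefore sets the precision: 1 read is 0.0375 to 0.0535 RPM. The averages do not say which library is which replicate. The derivation was tested on simulated data.

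Ratios of averages used no pseudocount. limma 3.58.1 (R 4.3.3, trend) was fitted to log2(RPM + 1) of 6 derived libraries. On simulated libraries for H3K9R against HWT, it recovered 185 of 200 windows changed 1.5-fold. The simulation held 2176 windows and gave 1 false call. Changed windows were drawn only from those with a mean of at least 5 RPM over the genotypes, so recovery below that was not measured. The simulation also used a preset spread and changed far fewer windows than the 55.3% that the real fit called higher. On 3R, 306 of the 392 windows had a mean of at least 5 RPM, and 227 held at least 5 RPM in HWT. The Student's T test over windows that the study names was not used, since windows of a library are not replicates. Alternatives were other pseudocounts, cutoffs and minimum levels, means or sums in place of medians, stretches as the unit, scaling to arm windows, unique windows alone, and leaving out each library. Genes came from the Ensembl annotation in dm6 coordinates, where Parp is listed as Parp1; positions are 1-based. Windows of 1 RPM or more in HWT were named by rank of ratio, and genes by their number of windows. Members, lists and tests were chosen with earlier results of these data known.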

Additional observations from a re-analysis of the deposited data

How the results depend on the processing

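No paired analysis was possible because the averages carry no replicate numbers. The medians over 3R windows kept their direction under each alternative tried. For H3K9R/HWT they ranged from 0.71 (stretches as the unit) to 1.71 (at least 80% unique sequence), for H4K16R/HWT from 0.05 to 0.33 and for H3K9R/H4K16R from 0.52 to 1.42, each with the same 2 alternatives at the ends. Leaving out 1 library gave 1.23 to 1.30, 0.23 to 0.24 and 0.92 to 0.98. Scaling to the 81 brightest arm windows gave a median of 1.42 for H3K9R/HWT and 350 windows higher than HWT. In those arm windows the median ratio of H3K9R to HWT was 0.908 before scaling. After scaling, 0 windows of 3R were lower in H3K9R than in HWT at an unadjusted limma p under 0.05. None were called lower than in H4K16R.

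The excess of 3R over other pericentric windows in H3K9R/HWT reversed to -0.044 with 1 RPM added and to -0.51 at like HWT levels, and lay between 0.06 and 0.09 without 1 library; for H4K16R/HWT it lay between 0.22 and 0.23 without 1 library and was 0.14 at like HWT levels and 0.37 at windows with at least 80% unique sequence. Windows at least 2-fold higher in H4K16R than HWT numbered 73 at a ratio of 1.5, 0 with 1 RPM added and 2 at a mean of at least 5 RPM, and 13 to 20 without 1 library. Called windows numbered 102 at a cutoff of 0.05, 7 in a fit of the 2 genotypes and 3 to 7 without 1 library. For H3K9R against HWT the calls without 1 library numbered 274 to 321 and the 2-fold windows 229 to 239; against H4K16R they numbered 246 to 262 and 182 to 191. The cause of these shifts was not tested.

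Of 185 values for segments, genes and named windows, 146 moved by no more than the spread between libraries, and 39 moved further. With 1 RPM added, 18 moved further and 19 did not. All the other values came from leaving out 1 of the libraries that also set this spread. Of the 185, 3 changed sign, at items that did not pass the limma test: without 1 library, H3K9R/HWT went from -0.12 to 0.012 at 1500001 and from 0.041 to -0.029 at CG12581, and H4K16R/HWT from -0.17 to 0.0040 at 1680001. Windows with few reads are less precise: the HWT replicates differed by a median absolute log2 value of 0.14 over all 392 windows against 0.10 at 5 RPM or more.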
